A study of Homo sapiens with 192 samples.

Results

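The 10 genes described here encode histone demethylases of the KDM3, KDM4, KDM5 and KDM6 families: KDM3A, KDM3B, KDM4A, KDM4B, KDM4C, KDM5A, KDM5B, KDM5C, KDM6A and KDM6B. They were chosen by name among the 58243 gene identifiers of the count tables, and all 10 passed the filter on low counts that left 19387 genes to test. RNA sequencing was performed on the human colorectal cancer lines HCT116, HT29, LS174T and LS513, in each case either as a flat layer (2D) or as three-dimensional cultures (3D), with 3 libraries in each of the 8 groups and 24 libraries in all. No agent was added and no allele was engineered in any group, and each line stands for the cells of a single tumour. The study's methods name low-attachment plates for its spheroid growth assay, and for the sequenced RNA they name only growth in 3D. HCT116 was kept in another culture medium than the other lines, so that line and medium cannot be told apart. The labels number the samples of a group without saying that they came from separate cultures, so the p-values below measure the spread between these samples, which may be technical.

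These enzymes remove methyl groups from lysines of histone H3 with a JmjC domain that needs iron, 2-oxoglutarate and molecular oxygen. KDM3 enzymes act on mono- and dimethylated lysine 9 (H3K9), a mark of silent chromatin. KDM4 enzymes act on trimethylated H3K9 and H3K36, KDM5 enzymes on methylated H3K4, the mark of active promoters, and KDM6 enzymes on trimethylated H3K27, the mark written by Polycomb repressive complex 2. KDM3A, KDM4B and KDM4C are known for being transcribed more strongly in low oxygen, through the hypoxia-inducible factor HIF, and the inner cells of tumour spheroids are known to receive less oxygen than cells of a flat layer.

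Library totals ran from 18723942 to 34277421 counts, and the members had between 244 and 7308 counts in each library, far over the 3 counts taken as the floor, which correspond to 0.0875 to 0.160 CPM (counts scaled by library size). The epithelial markers EPCAM, CDH1, KRT8, KRT18 and KRT19 were present in all 24 libraries, the least at 18 CPM, while CDX2 and VIL1 fell to 0.963 and 0.133 CPM in their lowest library and CDH17 exceeded the floor in 18 libraries. Of 8 markers of leukocytes, endothelium and fibroblasts, CD3E and COL1A2 had 0 counts in every library and PTPRC and DCN at most 2 counts. Their summed level was higher in 3D in each line, 13.6 to 18.8 against 7.34 to 9.42 CPM in HT29, 61.9 to 92.1 against 18.1 to 20.6 CPM in LS513, 45.8 to 69.0 against 23.5 to 27.9 CPM in HCT116 and 5.22 to 6.49 against 2.19 to 3.92 CPM in LS174T. CD68, which reached 91.8 CPM, and COL1A1, which reached 21.8 CPM, had the highest levels among these 8 markers. The largest sum, 92.1 CPM in LS513 in 3D, was thus nearly all CD68. PECAM1 exceeded the floor in 8 libraries, with at most 76 counts, and CDH5 in 2, with at most 5 counts. Which cells these transcripts came from was not tested. Among the libraries of a group, replicate 2 of LS174T in 3D stood apart most: the median chi-square over genes was 13.7 and 22.5 against its 2 partners and 2.93 between them. Smaller gaps were seen in other groups. Replicate 3 of HCT116 in 2D had 5.53 and 7.33 against its partners and 2.31 between them, and in LS513 in 3D the values ran from 3.04 to 9.09. Bulk libraries such as these cannot tell fewer cells of a kind from less RNA per cell.

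In the comparison of 3D with 2D growth, KDM3A and KDM4B rose in all 4 lines, KDM5B in 3 lines, and KDM4A, KDM4C, KDM5C and KDM6B in 1 line each. KDM3B was the only member called lower, in LS174T, and KDM5A and KDM6A were called in no single line. By edgeR's quasi-likelihood test at an adjusted p under 0.05, 3 of 10 members were called higher in HT29 and 0 lower, where 21.1% of all tested genes were called higher and 19.6% lower. In LS513, 5 members were called higher and 0 lower, against 13.7% and 9.9% of all genes. HCT116 also had 5 members higher and 0 lower, against 16.8% and 12.3%. LS174T had 2 members higher and 1 lower, against 13.1% and 9.15%. In HT29, LS513 and HCT116 the count of lower members was 0 by DESeq2 too, and at an unadjusted p under 0.05 in edgeR. The members' median log2 fold changes were -0.00, 0.22, 0.34 and 0.04 in HT29, LS513, HCT116 and LS174T, beside medians of all tested genes between 0.00 and 0.02. With 3 libraries a group an exact permutation test of a single gene cannot go below p = 0.1, so the calls rest on the fit across all genes.

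**Figure D1:**
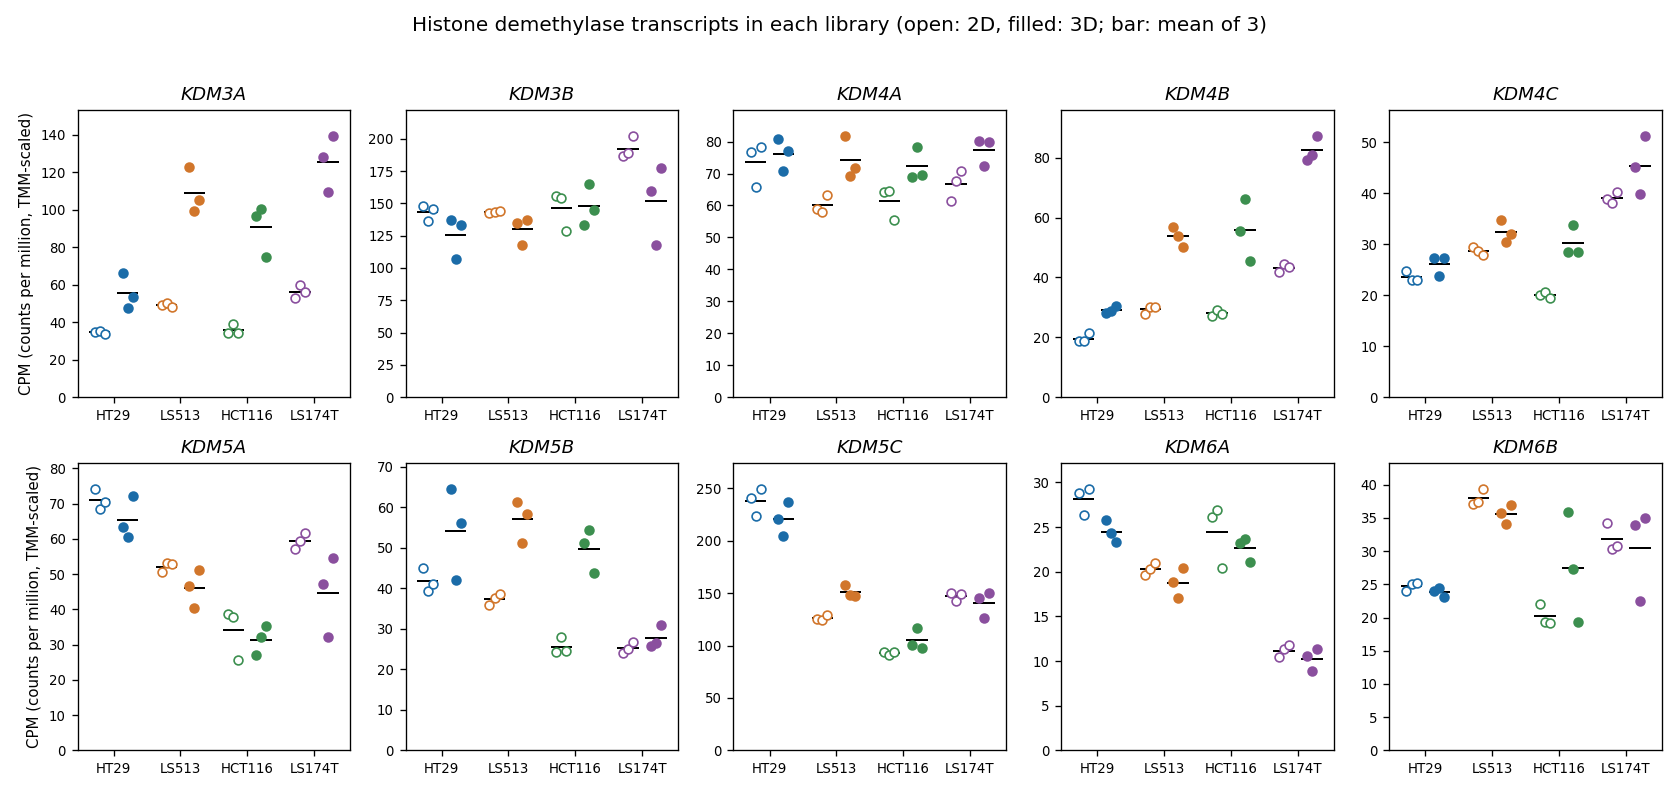
Level of each demethylase transcript in every library, in CPM on the y axis from 0, for the 4 lines on the x axis. Open points are 2D and filled points 3D libraries, and bars are means of 3. KDM3A and KDM4B show filled points above all open points in every line, as does KDM4A in LS513, HCT116 and LS174T. KDM6A shows no such gap, has its filled points below the open ones in HT29, and lies lowest in LS174T. The share of all tested genes with such a gap was not counted.

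KDM3A (ENSG00000115548, GRCh38 chr2:86440647-86492716, plus strand) removes H3K9 mono- and dimethylation at genes that are then activated. In HT29 it stood at 34.97, 35.19 and 33.89 CPM in 2D and at 66.1, 47.7 and 53.6 CPM in 3D. LS513 gave 49.02, 50.04 and 48.23 CPM in 2D and 123, 99.2 and 105 CPM in 3D. In HCT116 the 2D libraries held 34.02, 39.12 and 34.28 CPM and the 3D libraries 96.96, 100.7 and 75.04 CPM. Every 3D library thus lay above every 2D library of its line. For LS174T the values were 53.0, 59.6 and 55.9 CPM in 2D against 128, 110 and 139 CPM in 3D, again without overlap. The fold change of 3D over 2D was largest in HCT116 (2.54), followed by LS174T (2.24), LS513 (2.22) and HT29 (1.61). On the log2 scale these are 1.34 ± 0.12 (SE, n = 3 against 3; adjusted p = 4.1e-08), 1.16 ± 0.12 (adjusted p = 5.6e-07), 1.15 ± 0.12 (adjusted p = 3.9e-07) and 0.69 ± 0.12 (adjusted p = 1.4e-04). In HT29 19.8% of tested genes had a larger log2 fold change than KDM3A, and in the other 3 lines 6.06 to 7.37% did. The change in KDM3A differed between the lines at adjusted p = 0.041 by the interaction test, but this was under 0.05 in only 6 of 29 alternative settings, whose adjusted p ran from 0.019 to 0.226.

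KDM3B (ENSG00000120733, chr5:138352596-138437028, plus strand), the paralog of KDM3A with the same substrate, did not follow it. In LS174T its 2D libraries held 187, 189 and 202 CPM and its 3D libraries 160, 118 and 177 CPM, without overlap. The lowest 3D value came from replicate 2, the library that stood apart most. The log2 fold change of KDM3B in LS174T was -0.34 ± 0.12 (adjusted p = 0.043). Without replicate 2 of LS174T in 3D it was -0.18 with an adjusted p of 0.32, and the call was also lost without any of the 3 libraries of 2D or without replicate 1 of 3D (adjusted p 0.058 to 0.14). In the other lines KDM3B ranged from 107 to 165 CPM, with log2 fold changes of -0.19 in HT29, -0.14 in LS513 and 0.02 in HCT116, and none was called.

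KDM4B (ENSG00000127663, chr19:4969113-5153595, plus strand) removes trimethylation from H3K9 and rose in parallel with KDM3A. HT29 had 18.6, 18.7 and 21.3 CPM in 2D and 28.2, 28.8 and 30.5 CPM in 3D. In LS513 the values were 27.9, 30.1 and 30.3 CPM in 2D and 56.9, 54.0 and 50.2 CPM in 3D. HCT116 rose from 26.99, 29.17 and 27.93 CPM to 55.7, 66.3 and 45.5 CPM. The 2 growth conditions did not overlap in these lines. LS174T, which already had the highest level in 2D at 41.9, 44.4 and 43.4 CPM, reached 79.4, 80.8 and 87.2 CPM in 3D. The log2 fold changes were 0.58 ± 0.11 in HT29 (SE; adjusted p = 1.7e-04), 0.87 ± 0.10 in LS513 (adjusted p = 2.0e-06), 0.99 ± 0.10 in HCT116 (adjusted p = 2.6e-07) and 0.93 ± 0.10 in LS174T (adjusted p = 1.2e-06). They correspond to 1.495-, 1.825-, 1.992- and 1.907-fold higher levels, and the test of a difference between lines gave an adjusted p of 0.17. Of all tested genes, 608 (3.14%) were called higher in all 4 lines, and KDM3A and KDM4B were among them, while 477 (2.46%) were called lower in all 4, with no member.

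The other KDM4 genes changed less. KDM4C (ENSG00000107077, chr9:6720863-7175648, plus strand) was called higher in HCT116, from 20.1, 20.6 and 19.4 CPM in 2D to 28.4, 33.8 and 28.4 CPM in 3D, a log2 fold change of 0.59 ± 0.10 (adjusted p = 1.1e-04). In HT29, LS513 and LS174T its log2 fold changes were 0.15, 0.17 and 0.22, none called, and without replicate 2 of LS174T in 3D the last became 0.31 (adjusted p = 0.046). The interaction test gave an adjusted p of 0.067 for KDM4C. KDM4A (ENSG00000066135, chr1:43650158-43705515, plus strand), a demethylase of H3K9 and H3K36, was called higher only in LS513, from 58.8, 58.0 and 63.4 CPM to 81.7, 69.2 and 71.7 CPM, with a log2 fold change of 0.30 ± 0.10 (adjusted p = 0.023). That call was lost without replicate 1 or 2 of LS513 in 2D or replicate 1 in 3D (adjusted p 0.079 to 0.18). KDM4A gave log2 fold changes of 0.05 in HT29, 0.23 in HCT116 and 0.22 in LS174T, and its interaction test was at 0.52. In the GENCODE annotation 40.2% of the exonic bases of KDM4A also belong to another gene on the same strand, AL451062.3. That gene is not among the identifiers of the count tables, so no reads were counted for it.

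Among the KDM5 genes, which encode H3K4 demethylases, KDM5B (ENSG00000117139, chr1:202724495-202809470, minus strand) rose. In HCT116 it went 1.94-fold up, from 24.4, 27.9 and 24.5 CPM to 51.1, 54.5 and 43.8 CPM, a log2 fold change of 0.96 ± 0.13 (adjusted p = 6.0e-06). LS513 rose from 35.9, 37.7 and 38.5 CPM to 61.4, 51.3 and 58.5 CPM, by 0.61 ± 0.12 on the log2 scale (adjusted p = 9.2e-04). In HT29 the 3D libraries stood at 64.5, 42.1 and 56.1 CPM against 44.9, 39.3 and 41.1 CPM in 2D, and the 3D value of 42.1 lay inside the 2D range. The HT29 log2 fold change of 0.38 ± 0.12 (adjusted p = 0.018) fell to 0.26 (adjusted p = 0.12) without replicate 1 of 3D and was 0.37 (adjusted p = 0.054) without replicate 2 of 2D. LS174T gave 23.9, 25.1 and 26.9 CPM in 2D and 25.9, 26.5 and 30.9 CPM in 3D, with overlap and a log2 fold change of 0.13 (95% confidence interval -0.13 to 0.39, adjusted p = 0.47). The response of KDM5B differed between lines by the interaction test, with an adjusted p of 0.0092, which stayed under 0.05 in 28 of 29 alternative settings and reached 0.051 without replicate 2 of HCT116 in 3D. Of the 10 members, KDM3A and KDM5B passed this test, and so did 17.1% of all genes.

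KDM5C (ENSG00000126012, chrX:53191321-53225422, minus strand) was called only in LS513, with 125, 125 and 129 CPM in 2D and 158, 148 and 147 CPM in 3D, a log2 fold change of 0.26 ± 0.08 (adjusted p = 0.025). The call was lost without replicate 1 or 2 of LS513 in 2D or replicate 1 or 2 in 3D (adjusted p 0.064 to 0.14). The log2 fold changes of KDM5C elsewhere were -0.11 in HT29, 0.17 in HCT116 and -0.07 in LS174T, with an interaction test at 0.053. KDM5A (ENSG00000073614, chr12:280129-389454, minus strand), known as an H3K4 demethylase that binds the retinoblastoma protein, had negative log2 fold changes in all 4 lines, from -0.12 in HCT116 and HT29 to -0.41 in LS174T, and none passed. In LS174T it held 57.3, 59.5 and 61.7 CPM in 2D and 47.2, 32.2 and 54.7 CPM in 3D (adjusted p = 0.060), and without replicate 3 of LS174T in 3D the value was -0.58 (adjusted p = 0.0092). For HCT116 in 2D, KDM5A held 25.5 CPM in replicate 3 against 38.8 and 37.8 CPM in the others. With 1 library left out its log2 fold change in HCT116 ran from -0.32 to -0.01, not called at either end.

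The KDM6 genes, whose products remove H3K27 methylation, showed no common response. KDM6A (ENSG00000147050, chrX:44873177-45112602, plus strand), a subunit of H3K4 methyltransferase complexes, ranged over all libraries from 8.89 to 29.2 CPM, with log2 fold changes between -0.20 and -0.11 and adjusted p values of 0.16 to 0.50. KDM6B (ENSG00000132510, chr17:7839904-7854796, plus strand), known for its induction by inflammatory signals, was called higher in HCT116, where 3D libraries held 35.95, 27.3 and 19.34 CPM against 22.1, 19.37 and 19.18 CPM in 2D. The 2 conditions overlapped, and replicate 3 of 3D was at the 2D level. The log2 fold change of 0.45 ± 0.16 (adjusted p = 0.038) became 0.19 (adjusted p = 0.40) without replicate 1 of 3D, and the call was lost too without replicate 2 of 3D or any single 2D library (adjusted p 0.053 to 0.12). In the other lines KDM6B changed by -0.09 to -0.05 on the log2 scale, none called.

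**Figure D2:**
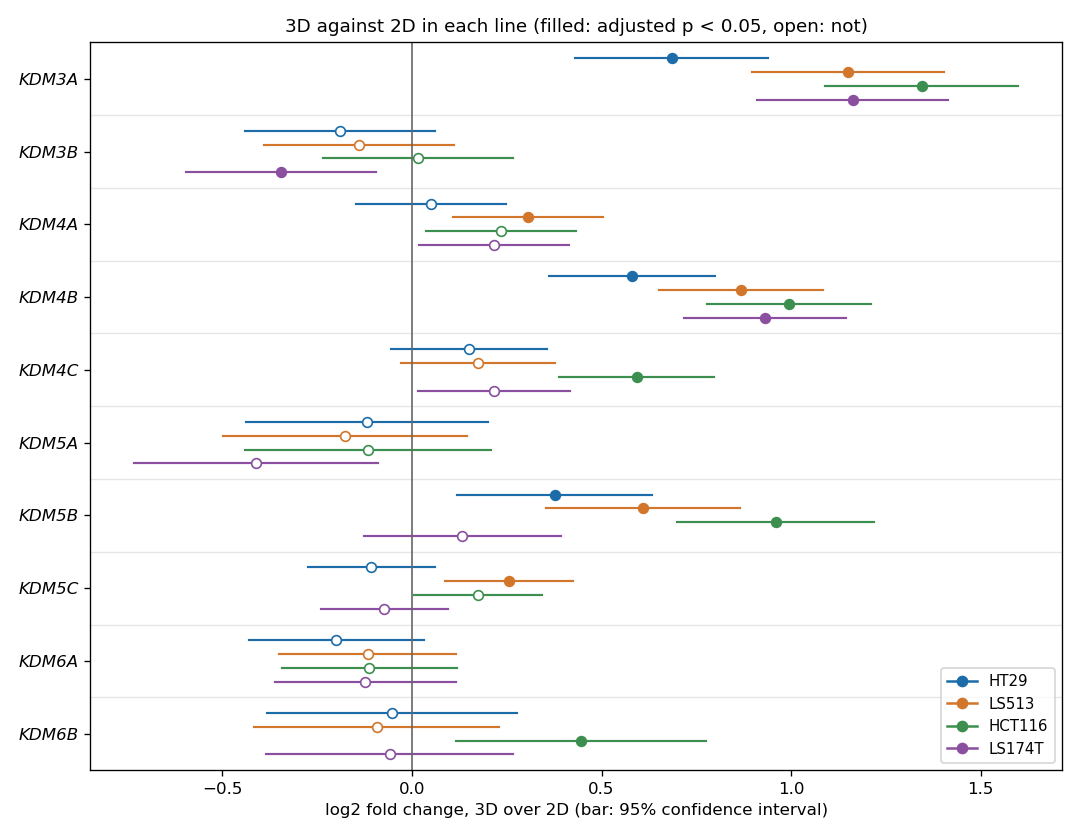
Log2 fold change of 3D over 2D on the x axis for each gene and line, with 95% confidence intervals as bars. Filled points have an adjusted p under 0.05. The intervals of KDM3A and KDM4B lie above 0 in all 4 lines, those of KDM5B in 3 lines, and the LS174T interval of KDM3B lies below 0.

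Averaged over the 4 lines with equal weights, 5 members were called higher, KDM3A (log2 fold change 1.08 ± 0.06), KDM4B (0.84 ± 0.05), KDM5B (0.52 ± 0.06), KDM4C (0.28 ± 0.05) and KDM4A (0.20 ± 0.05), beside 26.6% of all tested genes. Another 3 were called lower, KDM5A (-0.21 ± 0.08, adjusted p = 0.030), KDM3B (-0.16 ± 0.06, adjusted p = 0.026) and KDM6A (-0.14 ± 0.06, adjusted p = 0.045), beside 23.9% of all genes. The number of lower members was 0 without replicate 1 of HCT116 in 2D or in 3D, replicate 1 of HT29 in 2D, replicate 3 of HT29 in 3D, replicate 2 of LS174T in 3D or replicate 2 of LS513 in 3D, and 1 without replicate 2 of HCT116 in 2D or replicate 3 of LS174T in 2D. KDM6A was called lower in 6 of 29 alternatives, all of them fits without 1 library, KDM5A in 20 and KDM3B in 23. The size of these declines was near that of long transcripts in general. Genes in the quartile of the longest annotated transcripts, over 4732 bases, had a median log2 fold change of -0.15 over the 4 lines, and those in the shortest quartile a median of 0.22. By line, the longest quartile stood at -0.20 in HT29, -0.12 in HCT116, -0.11 in LS513 and -0.19 in LS174T, the last becoming -0.09 without replicate 2 of 3D. The longest transcripts of KDM5A, KDM3B and KDM6A exceeded 4732 bases. Those of the members that rose most did too, at 8741 bases for KDM3A, 5703 for KDM4B and 10340 for KDM5B. KDM4A (4474 bases) and KDM4C (4655 bases) lay below that limit. The part of transcript length in the members' values was not tested.

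The lines also differed from each other in 2D. Each of the 10 members differed between the 4 lines by the F test, as did 91.7% of all tested genes. For KDM4A (adjusted p = 0.025) this was lost without replicate 1 or 3 of HT29 or replicate 1 or 2 of LS513 in 2D (adjusted p 0.056 to 0.12) and with all genes of at least 1 count (adjusted p = 0.15). LS174T had the highest mean level of KDM3A, KDM3B, KDM4B and KDM4C and the lowest KDM5B and KDM6A. KDM5C showed the widest spread, 2.56-fold, with 238 ± 13.0 CPM (SD, n = 3) in HT29, 148 ± 4.14 in LS174T, 126 ± 2.59 in LS513 and 92.9 ± 1.43 in HCT116, and each step in that order passed the test (adjusted p 8.9e-08, 0.023 and 4.0e-05). The middle step, LS174T over LS513, was lost without replicate 1 or 3 of LS174T or replicate 1 or 2 of LS513 (adjusted p 0.066 to 0.071) and with all genes of at least 1 count (adjusted p = 0.21). KDM6A followed at 2.52-fold, with 28.2 CPM in HT29, 24.5 in HCT116, 20.3 in LS513 and 11.2 in LS174T, of which HT29 and HCT116 did not differ beyond their spread (adjusted p = 0.12). The step from HCT116 to LS513 (adjusted p = 0.036) was lost without replicate 1 or 2 of HCT116 or any of the 3 libraries of LS513 (adjusted p 0.051 to 0.17) and with all genes of at least 1 count (adjusted p = 0.24). KDM4B ran from 43.2 CPM in LS174T through 29.4 in LS513 and 28.03 in HCT116 to 19.54 in HT29, and the middle pair was not called apart (adjusted p = 0.57). KDM5A was 2.09-fold higher in HT29 (71.0 CPM) than in HCT116 (34.03 CPM), and HT29, LS174T and LS513 were not separated as neighbours.

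KDM4C was ordered LS174T (39.1 CPM), LS513 (28.7), HT29 (23.5) and HCT116 (20.01), and each neighbour differed (adjusted p 3.9e-04 to 0.041). Of these steps, LS513 over HT29 was lost without replicate 2 or 3 of HT29 (adjusted p 0.060 and 0.063), and HT29 over HCT116 without any library of HCT116 or without replicate 1 of HT29 (adjusted p 0.060 to 0.12), and with all genes of at least 1 count they were at 0.064 and 0.17. KDM6B was 1.88-fold higher in LS513 (37.9 CPM) than in HCT116 (20.2 CPM), but no pair of neighbours in its order was called. For KDM3A the upper pair, LS174T and LS513 (56.2 and 49.1 CPM), and the lower pair, HCT116 and HT29 (35.8 and 34.7 CPM), were each not called apart, while the step between the pairs was (adjusted p = 0.0021). KDM5B likewise fell into an upper pair, HT29 and LS513 (41.8 and 37.4 CPM), and a lower pair, HCT116 and LS174T (25.6 and 25.3 CPM), apart at adjusted p = 4.9e-04. KDM3B was higher in LS174T (192 CPM) than in the other 3 lines (144 to 146 CPM), which were not separated, and KDM4A varied least, 1.23-fold, from 73.6 CPM in HT29 to 60.04 in LS513. As background to these pairs, the share of all genes called was 60.6% for HT29 against LS513, 68.8% for HT29 against HCT116, 64.6% for HT29 against LS174T, 68.3% for LS513 against HCT116, 57.6% for LS513 against LS174T and 68.3% for HCT116 against LS174T.

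Levels of different genes were compared as CPM per kilobase of exonic length. Averaged over the 8 groups, KDM3B (18.5 CPM per kilobase), KDM5C (17.5) and KDM4A (13.6) were the highest, and the remaining 7 members lay between 1.54 for KDM5B and 5.19 for KDM3A. On the length of the longest transcript the same 3 led, with KDM5C first at 25.05, and KDM6A was the lowest at 3.38 CPM per kilobase. The genes that rose most in 3D, KDM3A, KDM4B and KDM5B, were therefore not the most abundant of the family on either scale.

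**Figure D3:**
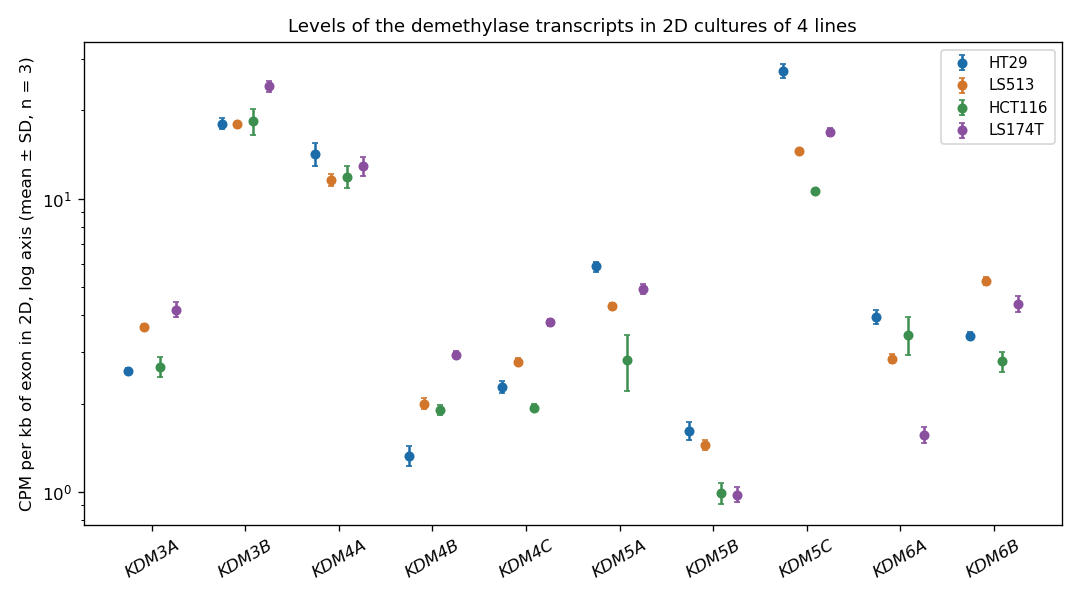
Level of each gene in 2D cultures of the 4 lines as CPM per kilobase of exon on a logarithmic y axis, mean ± SD of 3 libraries. KDM3B, KDM5C and KDM4A sit highest in every line, and KDM6A in LS174T lies under KDM6A in the other lines.

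HIF is known to bind the core letters ACGTG or GCGTG, and stretches around such matches are shown to let a riser, KDM4B, be read beside KDM4A, called in a single line, and KDM6A, called in none. Both strands of the 250 bases before each RefSeq gene start (GRCh38.p14) were searched, and a match in the letters CACGTG counts on both strands because the motif overlaps itself there. Such a match was present in 43.2% of all 35116 promoter windows and in 9 of the 12 windows of the members, whose median GC content was 63.2% against 58% overall. The windows of KDM3A overlap and hold the same match, so the windows of a gene are not independent. KDM3A, KDM4A, KDM4B, KDM4C, KDM5A, KDM5B, KDM6A and KDM6B had at least 1 match, and KDM3B and KDM5C had none. Capitals mark the matches in these stretches, each on the plus strand and outside annotated exons.
KDM4B, chr19:4968863-4968918: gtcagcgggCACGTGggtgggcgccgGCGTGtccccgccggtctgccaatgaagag
KDM4B, chr19:4969011-4969065: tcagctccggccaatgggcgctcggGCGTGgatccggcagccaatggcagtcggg
KDM4A, chr1:43650045-43650099: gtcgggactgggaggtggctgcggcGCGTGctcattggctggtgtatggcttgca
KDM6A, chrX:44873050-44873176: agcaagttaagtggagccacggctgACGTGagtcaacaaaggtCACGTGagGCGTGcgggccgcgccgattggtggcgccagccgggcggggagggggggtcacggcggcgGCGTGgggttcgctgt
With CACGTG counted on both strands, KDM6A had 5 matches in the stretch shown and was not called in any line. KDM4B had 4 in its 2 stretches and was called in all 4. Among members without a stretch shown, KDM3A, with GCGTG only, was called in all 4 lines, and KDM4C, with both words, in HCT116. KDM5B, with GCGTG only, was called in 3 lines and KDM5A, also with GCGTG only, in none. KDM6B, with GCGTG in its upstream window only, was called in HCT116. Without a match, KDM5C was called higher in LS513 and KDM3B lower in LS174T. The letters are a description of these windows and were not related to binding.

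A list of 19 other genes known to rise in low oxygen, chosen with earlier results of these data known, was examined beside the members. Of these, 19 were called higher in LS174T, 17 in both HCT116 and LS513, and 15 in HT29, none was called lower, and 14 were called higher in all 4 lines. Their median log2 fold changes ran from 1.36 in HT29 to 1.77 in LS174T, and KDM3A and KDM4B lay below the median in every line. Of all tested genes, 13.1 to 21.1% were called higher in a line and 3.14% in all 4. NDRG1, a stress-response gene, changed by 4.33 in HT29 and 4.36 in HCT116 on the log2 scale, and LDHA, which encodes lactate dehydrogenase A, by 1.16 in LS513 and 1.39 in LS174T. In LS174T without replicate 2 of 3D all 19 were still called higher. Of 13 proliferation genes, 9, 10, 10 and 5 were called lower in HT29, LS513, HCT116 and LS174T and none higher, with MKI67 at -0.92 in LS174T and TYMS, the thymidylate synthase gene, at -0.59 in HT29. The share of all tested genes called lower was 9.15 to 19.6% by line. No gene of the first list was lower and none of the second higher by DESeq2 or at an unadjusted p under 0.05.

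The enzymes that place the marks the KDM proteins remove were mostly lower in 3D or not called, and none was called higher in any line by edgeR. At an unadjusted p under 0.05, and with DESeq2, 1 gene of the H3K4 list was higher in HT29 and none of these lists' genes elsewhere. As background to the counts of these lists, 19.6, 9.9, 12.3 and 9.15% of all tested genes were called lower in HT29, LS513, HCT116 and LS174T. For the 6 H3K9 methyltransferases, 2, 3, 2 and 1 were called lower in the same order of lines. Among them SUV39H2 was at -0.64 in HT29, -0.53 in LS513 and -0.64 in HCT116, and EHMT2 (G9a) at -0.37 in LS513, while KDM3A and KDM4B, which act on the same lysine, were higher. Of 14 H3K4 methyltransferases and subunits, 7, 2, 3 and 6 were called lower, and WDR5, a shared subunit, was lower in all 4 lines. The 6 genes of the H3K27 methyltransferase complex had 4 called lower in each of HT29, LS513 and HCT116 and 0 in LS174T (0 by DESeq2, 2 at an unadjusted p under 0.05), and its catalytic subunit EZH2 changed by -0.73 in HT29 and -0.55 in HCT116. Of 5 H3K36 methyltransferases, 4, 1, 2 and 3 were called lower, with NSD2 in all 4 lines, at log2 fold changes of -0.86 in HT29, -0.56 in LS174T, -0.55 in HCT116 and -0.47 in LS513.

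The number of calls in LS174T depended on the libraries used. Without replicate 2 of 3D, 0 H3K9, 2 H3K4, 0 H3K27 and 1 H3K36 methyltransferase genes were called lower there (2, 6, 1 and 3 at an unadjusted p under 0.05), and 7.05% of all genes were called higher and 3.46% lower. Leaving out any single 2D library instead gave 8.44 to 8.87% higher and 4.74 to 5.15% lower, with 0 to 1, 2 to 4, 0 and 2 to 3 genes of these lists lower. Without replicate 1 of 3D the shares were 11.7% and 6.3%, with 1, 6, 0 and 3 genes lower, and without replicate 3 of 3D they were 16.2% and 14.3%, with 2, 9, 1 and 5. The loss from having fewer libraries and the loss from a given library were not told apart. KMT2D, a very long transcript, had a 3D mean of 76.3 ± 28.9 CPM in LS174T against 149.8 ± 16.96 CPM in 2D. The long-transcript medians given above move in the same direction as these lists, and their part was not tested.

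**Figure D4:**
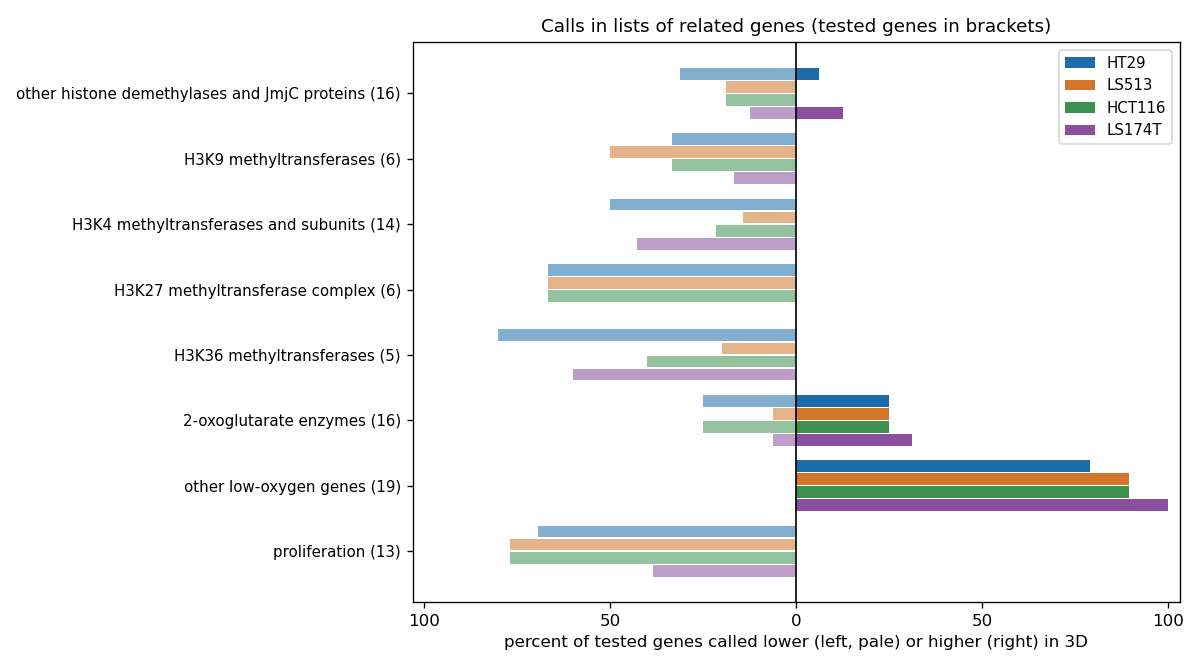
Share of each list's tested genes, whose number is in brackets, that was called lower (to the left, pale) or higher (to the right) in 3D, in percent, for the 4 lines. All methyltransferase lists and the proliferation list have bars only to the left, and the low-oxygen list only to the right.

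The other histone demethylases and JmjC proteins did not rise as KDM3A and KDM4B did. Of 16 tested (KDM4E did not pass the filter), 1, 0, 0 and 2 were called higher and 5, 3, 3 and 2 lower in HT29, LS513, HCT116 and LS174T, and none was called in the same direction in all 4. The shares of all tested genes were 21.1, 13.7, 16.8 and 13.1% higher and 19.6, 9.9, 12.3 and 9.15% lower. By DESeq2 the counts of higher genes in LS513 and HCT116 were also 0, and at an unadjusted p under 0.05 they were 0 and 1. KDM1A (LSD1), the flavin-dependent H3K4 demethylase, fell by 0.45 in HT29 and by 0.30 in HCT116 on the log2 scale. KDM7A, an H3K9 and H3K27 demethylase, was higher in HT29, at 11.9 ± 0.327 against 6.27 ± 0.783 CPM (log2 fold change 0.92). In LS174T the genes called higher were HR (0.72) and RIOX1 (0.66, from 0.916 CPM in 2D). Without replicate 2 of LS174T in 3D, 2 of this list were called higher and 0 lower in that line (2 lower at an unadjusted p under 0.05).

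JmjC enzymes use 2-oxoglutarate, and 16 genes that make or use it, or succinate and fumarate, were examined. In HT29, LS513, HCT116 and LS174T, 4, 4, 4 and 5 were called higher and 4, 1, 4 and 1 lower. Of all tested genes, 21.1, 13.7, 16.8 and 13.1% were called higher there and 19.6, 9.9, 12.3 and 9.15% lower. Several of the counts were near these shares. IDH2, the mitochondrial isocitrate dehydrogenase that produces 2-oxoglutarate, was higher in all 4 lines, with log2 fold changes of 1.28 in HT29, 0.89 in HCT116, 0.64 in LS513 and 0.45 in LS174T. IDH3A was lower in all 4 lines, by 0.39 in HCT116 on the log2 scale.

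Across the 24 libraries, after the mean of each line was subtracted from log2 CPM, the pattern of KDM3A was most like those of P4HA1 (Pearson r = 0.98), KDM4B (0.98) and HIF1A-AS2 (0.97). These correlations describe libraries that share lines and growth conditions. P4HA1, a gene of the low-oxygen list that encodes a collagen prolyl hydroxylase subunit that also uses oxygen and 2-oxoglutarate, ranged from 22.9 to 216 CPM, whereas HIF1A-AS2 never exceeded 0.392 CPM and lies antisense to HIF1A, whose reads cannot be told from it unless counting used strand. The 3 genes most like KDM4B were P4HA1 (0.98), KDM3A (0.98) and C4orf3 (0.97). For KDM5B they were SERINC1 (0.95), SREBF2 (0.94) and DDX60 (0.93). Their log2 fold changes were smaller in LS174T and HT29 than in HCT116, at 0.19, 0.40 and 0.03 in LS174T against 0.68, 1.07 and 1.75 in HCT116. This shared order follows from picking them by likeness to KDM5B and is no separate result. For KDM6B the values were lower, 0.87 for SLITRK1, 0.84 for CCDC9B and 0.81 for GPAT4. SLITRK1 ranged from 0 to 30.4 CPM. Its log2 fold change was 2.68 in HCT116, -0.15 in LS174T and 0 in HT29 and LS513. Its likeness thus rests mainly on HCT116, where the KDM6B call depended on single libraries. Among the members themselves, KDM3A correlated with KDM5B at 0.87, KDM4C at 0.86 and KDM4A at 0.82, and with its paralog KDM3B at -0.35.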

How the data were processed

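Poly(A) RNA was sequenced from strand-specific libraries. The deposited values are raw counts per Ensembl gene: per the labels and the study's methods, the authors trimmed reads with Trim Galore 0.4.1, aligned them with STAR, removed multi-mapped reads and counted exonic reads with HTSeq 0.5.3, and whether counting used strand is not given in the sources used here. The labels name hg19 and the methods Ensembl 91; 99.5% of the identifiers were in GENCODE 29 (GRCh38), from which symbols, positions and lengths were taken. The 8 technical replicates of each library were summed; replicate 4 of HT29 in 3D had 7, the other not being analysed here. Genes kept by filterByExpr were fitted in edgeR 4.0.16 (R 4.3.3) with TMM scaling and quasi-likelihood tests over all 24 libraries in 8 groups, with Benjamini-Hochberg adjustment over 19387 genes. CPM are on the TMM scale. DESeq2 1.42.0, other filters and scalings, a replicate block and leaving out each library were alternatives. On counts simulated with 200 genes changed in HT29 in 3D, edgeR recovered 68 of 100 changed by 1 on the log2 scale. It recovered 34 of 100 changed by 0.5, with 4 false calls. Far fewer genes changed there than were called in HT29 here, so these shares do not measure the power of the real tests. Members and lists were chosen with earlier results of these data known. All members were named, and in each list at most the 3 genes with the smallest p in each line, besides genes called in all 4 lines, which were named after their values were seen. Likeness was the largest Pearson correlation over all tested genes. Promoter letters came from RefSeq.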

Additional observations from a re-analysis of the deposited data

Results flagged for a closer look

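The change of KDM5B between 2D and 3D differed between the 4 lines (adjusted p = 0.009229 by edgeR's F test of the interaction), with log2 fold changes of 0.96 in HCT116, 0.61 in LS513, 0.38 in HT29 and 0.13 in LS174T. The change of KDM3A also differed between lines (adjusted p = 0.04107), with 1.34 in HCT116 and 0.69 in HT29 at the ends, and all 4 values were positive. The adjusted p for KDM3A was under 0.05 in 6 of 29 alternatives and that for KDM5B in 28 of 29.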

How the results depend on the processing

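The calls of KDM3A and KDM4B in all 4 lines, of KDM5B in LS513 and HCT116 and of KDM4C in HCT116 held under all 12 alternatives run for each, and 9 or 10 members differed between lines in 2D, KDM4A being the exception where 9 did. The numbers of members called moved as follows. In LS513 3 instead of 5 were higher with all genes of at least 1 count and with the replicate block, and 3 to 5 with 1 library left out. In LS174T 2 were lower with all genes of at least 1 count and with DESeq2, 0 with only the 6 libraries of the line, and 0 to 2 with 1 library left out. Over the mean of lines 2 instead of 3 were lower, without KDM6A (adjusted p 0.064 to 0.21), with DESeq2 size factors, all genes of at least 1 count, DESeq2, the replicate block or technical replicate d left out, and 0 to 3 with 1 library left out. The effect of growth differed between lines for 1 member with DESeq2 size factors, all genes of at least 1 count, the replicate block or technical replicate d left out, for 4 with DESeq2, and for 0 to 4 with 1 library left out. The cause of these shifts was not tested.

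Same-numbered 2D and 3D libraries did not deviate together (correlations from -0.146 to 0.094), so the numbers were not taken as pairs; with the replicate block the KDM5B call in HT29 (0.28, adjusted p = 0.15), the KDM4A and KDM5C calls in LS513 and the KDM6B call in HCT116 were lost, and KDM4A in HT29 became -0.0344.

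Values that changed sign were not called. The log2 fold change of KDM3B in HCT116 was -0.0157 with all genes of at least 1 count, -0.0072 with only the line's libraries and -0.097 to 0.0664 with 1 library left out. With 1 library left out KDM5C ran from -0.1228 to 0.0089 in LS174T, and KDM6B from -0.0255 to 0.008 in HT29 and from -0.17 to 0.1268 in LS174T. The difference of HCT116 over HT29 in 2D for KDM3A ran from -0.0184 to 0.0853 with 1 library left out. For KDM3B, HCT116 over LS513 was -0.016 with all genes of at least 1 count and -0.0209 to 0.0874 with 1 library left out, and LS513 over HT29 was -0.0326 with DESeq2 size factors, -0.0311 with DESeq2, -0.0066 without technical replicate d and -0.0344 to 0.0387 with 1 library left out. HCT116 over LS513 for KDM4A was -0.0095 with all genes of at least 1 count and -0.0047 to 0.0801 with 1 library left out, and HCT116 over LS174T for KDM5B was -0.005, -0.0467 to 0.0618, and -0.0077 without technical replicate d. DESeq2 alone called KDM4A in HCT116 (0.24, adjusted p = 0.045), and it also called KDM5A in LS174T (-0.41, adjusted p = 0.046), as did the fit of all genes (adjusted p = 0.015).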
